A study of Mus musculus with 2 samples.

Results

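Transcripts of 8 genes of meiotic strand exchange were described in single cells of the mouse fetal ovary: the recombinase Dmc1, the recombinase loader Brca2 and its partner Hsf2bp, the accessory pair Psmc3ip and Mnd1, the single-strand binding pair Meiob and Spata22, and Tex15. The genes were taken by their symbols from the gene rows that both libraries share, and all 8 were found among 27998 rows. In meiotic prophase, programmed double-strand breaks are cut back to single strands, on which recombinases such as DMC1 form filaments that search for and invade the homologous chromosome. BRCA2 loads the recombinases, HSF2BP (also called MEILB2) binds BRCA2 in meiotic cells, and the dimer of PSMC3IP (HOP2) and MND1 helps the filament to invade. MEIOB and SPATA22 form a complex on single-stranded DNA, and TEX15 is known from the loading of recombinases and from piRNA-directed silencing in the male germline. In mouse ovaries these events run in the days around E15.5, when most germ cells are in prophase of the first meiotic division, and BRCA2 also acts in the repair of DNA in dividing somatic cells.

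The glucocorticoid receptor (GR) is a hormone receptor encoded by Nr3c1, and the samples were collected to ask what its loss does to female germ cells. All embryos were at E15.5 and came from a stock that carries Tg(Pou5f1-EGFP)2Mnn, a transgene that marks germ cells, and Nr3c1tm1.1Jda, an allele with a floxed exon 3. In the KO embryos exon 3 had been deleted on both alleles with a Cre that the β-actin promoter drives in the whole body (Tmem163Tg(ACTB-cre)2Mrt), so GR was lost in germ cells and soma alike, and WT embryos were of wild-type genotype. The ovaries of 4 WT and of 2 KO embryos were pooled, sorted into GFP-positive and GFP-negative cells, remixed at 60 to 40, and captured as 1 library per genotype. Genotype therefore cannot be told apart from the pool of embryos, its sort and its capture, no p-value can be given, and each interval below covers counting error only, at 95%.

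The WT library gave 9045 kept cells with a median of 15685 transcript molecules (UMIs) and the KO library 15502 cells with a median of 10194.5, and 27 kept barcodes occurred in both. Clusters built without the 8 genes held 6791 WT and 10202 KO germ-like cells and 2254 WT and 5300 KO somatic-like cells, which marker genes put in 7 classes. Nr3c1 fell from 71.9 UMIs per 1000000 (CPM) in WT to 11.6 in KO germ-like cells, a log2 ratio of -2.63 (-2.71 to -2.55). The 3-prime tags lie outside the deleted exon, so this checks the transcript level and not the deletion. Germ cell RNA was also counted in somatic-like cells. In all somatic-like cells, 7 germ markers (Ddx4, Dazl, Mael, Sycp3, Sycp1, Taf7l and Smc1b) stood at 11.6% to 14.0% of their germ-like level in WT and at 17.5% to 19.2% in KO. Free RNA and doublets of a germ and a somatic cell can both give such counts, and their shares were not tested. Each somatic result is therefore also given for low-germ cells, those with at most 5 UMIs of these markers and Dnd1 together per 10000. In them the 7 markers fell to 1.26% to 2.48% of the germ-like level in WT and 1.41% to 2.65% in KO. The limit left out 16.5% of WT and 29.2% of KO somatic-like cells, of which Scrublet called 34.6% and 36.5% doublets.

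In the GENCODE M21 annotation of GRCm38, all 8 are protein-coding genes. Dmc1 lies on chromosome 15 (79561497 to 79605109, minus strand), Brca2 on chromosome 5 (150522630 to 150570329, plus strand) and Hsf2bp on chromosome 17 (31944769 to 32036349, minus strand). Psmc3ip is on chromosome 11 (101091823 to 101095436, minus strand), Mnd1 on chromosome 3 (84087933 to 84155786, minus strand) and Spata22 on chromosome 11 (73329741 to 73355913, plus strand). Meiob lies on chromosome 17 (24804289 to 24839788, plus strand) and Tex15 on chromosome 8 (33516738 to 33585582, plus strand). Hsf2bp overlaps Rrp1b and Psmc3ip overlaps Mlx, both on the opposite strand, Mnd1 has a near-identical pseudogene, Mnd1-ps, that has no row of its own, and Spata22 shares transcript sequence with Gm49340. Values of these 4 genes are uncertain to that extent.

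RefSeq promoter windows of GRCm38.p6, from 250 bases before to 50 bases after a RefSeq start, were given for 6 of the 8 genes, and the 2 without an entry were Meiob and Tex15. The Hsf2bp window (chr17:32034459-32034758, minus strand) lies within the GENCODE span of the gene, which ends at 32036349, and not at its start. The windows from 200 bases before to 20 bases after the start are shown for Dmc1 and Brca2, and for Psmc3ip and Mnd1, since these 4 genes mark out the germ cell and somatic patterns described below. They lie at chr15:79605090-79605309 (minus strand), chr5:150522421-150522640 (plus strand), chr11:101095416-101095635 (minus strand) and chr3:84155767-84155986 (minus strand). Capitals mark matches on either strand to 6 motifs: the E2F-type strings TTCCCGC, TTTGGCGC and TTTCGCGC, the STRA8-type CNCCTCAG, the cAMP response element TGACGTCA and the E-box CACGTG.
Dmc1: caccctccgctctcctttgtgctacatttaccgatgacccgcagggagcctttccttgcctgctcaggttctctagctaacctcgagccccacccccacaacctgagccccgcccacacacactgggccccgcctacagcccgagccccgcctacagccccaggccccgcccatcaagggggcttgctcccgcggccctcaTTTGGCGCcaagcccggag
Brca2: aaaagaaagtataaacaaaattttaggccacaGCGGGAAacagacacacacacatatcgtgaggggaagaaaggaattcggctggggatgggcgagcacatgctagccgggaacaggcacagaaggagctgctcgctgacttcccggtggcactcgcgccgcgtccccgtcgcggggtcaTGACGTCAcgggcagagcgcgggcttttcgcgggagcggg
Psmc3ip: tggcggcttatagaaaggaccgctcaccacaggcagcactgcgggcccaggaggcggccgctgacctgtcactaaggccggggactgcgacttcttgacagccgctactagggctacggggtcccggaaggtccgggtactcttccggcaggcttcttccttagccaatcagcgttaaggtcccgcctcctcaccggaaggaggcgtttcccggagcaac
Mnd1: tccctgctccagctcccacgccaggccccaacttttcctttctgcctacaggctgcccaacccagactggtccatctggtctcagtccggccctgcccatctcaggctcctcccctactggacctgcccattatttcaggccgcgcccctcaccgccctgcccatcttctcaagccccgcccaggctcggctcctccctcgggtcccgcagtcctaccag
Dmc1 held TTTGGCGC from base 2 after the start, and Brca2 held TTCCCGC on the opposite strand, 168 bases before the start, and TGACGTCA from 20 bases before it. In the full windows, Hsf2bp held TTCCCGC and Spata22 held it on the opposite strand, so that 4 of 6 genes (66.7%) held an E2F-type string, against 5.33% of 32851 promoters. No 2 matches overlapped, and neither Psmc3ip nor Mnd1 held any of the 6 strings in its window. Over all promoters, TTCCCGC was found in 4.6%, TTTGGCGC in 0.514%, TTTCGCGC in 0.323%, CNCCTCAG in 7.94%, TGACGTCA in 1.79% and CACGTG in 7.15%. A match is a description of letters and not evidence of binding.

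All 8 genes were read in germ-like cells of both libraries, with between 4315 and 131654 UMIs a gene. Tex15 stood at 1092 CPM in WT and 1003 in KO, Brca2 at 397 and 409.8, Meiob at 206 and 232, and Hsf2bp at 161 and 167. Dmc1 stood at 142 CPM in WT and 174 in KO, Psmc3ip at 117 and 118, Mnd1 at 53.7 and 35.5, and Spata22 at 39.1 and 42.9. Counts come from transcript 3-prime ends, so the levels of different genes are listed and not ranked. With every cell thinned to 3000 UMIs, 33.7% of WT germ-like cells held a Dmc1 UMI against 1.12% of WT low-germ somatic-like cells, and for Brca2 the shares were 63.0% and 6.54%. Without thinning the Dmc1 shares were 83.2% and 4.78%, at median depths of 17100 and 12147 UMIs.

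Germ-like cells were next compared by stage. Clusters of germ-like cells were called entry-like by genes of meiotic entry (Stra8, Rec8, Meioc and others), recombination-like by genes of break formation and chromosome axes (Prdm9, Hormad1, Mei1, Mei4, Rec114, Ankrd31 and Ccdc36), and advanced-like by oocyte genes (Sohlh1, Figla, Lhx8, Nobox and others). None of the 8 genes was used to build or name these clusters, but the cells form a continuum and the borders move with the clustering. The entry-like stage held 606 WT and 1274 KO cells, the recombination-like stage 1144 and 2417, and the advanced-like stage 2243 and 2157, and markers of cells before meiosis were also high in the entry-like stage. Median depth was 17214 UMIs in WT and 7241 in KO advanced-like cells, a wider gap than in the entry-like stage (22674.5 and 15769.5).

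Among the 3 named stages, Dmc1, the meiosis-specific recombinase, was highest in the recombination-like one. Its level was 93.0 CPM in entry-like, 175 in recombination-like and 104 in advanced-like WT cells, and 134, 216 and 105 CPM in the same stages of KO. The log2 ratio of recombination-like over advanced-like cells was 0.76 (0.69 to 0.82) in WT and 1.05 (0.97 to 1.12) in KO. The WT entry-like and advanced-like levels lay close together (log2 ratio -0.15, -0.25 to -0.06), while in KO the entry-like level was the higher one (0.36, 0.27 to 0.44).

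Brca2 had the same highest named stage, with a smaller decline afterwards. WT levels were 297, 491 and 358 CPM from entry-like to advanced-like cells, and KO levels were 289.8, 468 and 386 CPM. The log2 ratio of recombination-like over advanced-like cells was 0.45 (0.42 to 0.49) in WT and 0.28 (0.24 to 0.32) in KO. Hsf2bp, which encodes the meiotic partner of BRCA2, was instead already high at entry. It stood at 216, 224 and 118 CPM in the WT stages and 208, 218 and 95.1 CPM in the KO stages, and its WT entry-like and recombination-like levels differed by no more than counting error (log2 ratio 0.05, -0.02 to 0.12).

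Psmc3ip and Mnd1, whose products act as a dimer, had different profiles. Psmc3ip was lowest at entry and highest late, at 60.7, 71.2 and 146 CPM in WT and 71.0, 84.5 and 165 CPM in KO. Mnd1 was lowest in the recombination-like stage, at 48.2, 24.9 and 79.0 CPM in WT and 49.9, 23.5 and 54.0 CPM in KO. The log2 ratio of recombination-like over advanced-like cells was -1.03 (-1.12 to -0.95) for Psmc3ip and -1.66 (-1.80 to -1.53) for Mnd1 in WT. In KO the ratios were -0.96 (-1.04 to -0.89) and -1.20 (-1.34 to -1.07). Against entry-like cells, the recombination-like level of Psmc3ip was higher (0.23, 0.11 to 0.36 in WT) and that of Mnd1 was lower (-0.95, -1.12 to -0.78 in WT).

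Meiob and Spata22, whose products also form a complex, both rose from entry to the recombination-like stage, but Meiob then declined and Spata22 did not. Meiob stood at 132, 343 and 136 CPM in the WT stages and 141, 344 and 133 CPM in the KO stages, the highest recombination-like over advanced-like log2 ratio of the 8 genes in both libraries (1.34, 1.29 to 1.39 in WT, and 1.37, 1.30 to 1.43 in KO). Spata22 rose from entry to the recombination-like stage, from 14.9 to 40.4 CPM in WT and from 23.0 to 46.3 CPM in KO, and then stayed at 38.0 and 44.0 CPM. Its recombination-like and advanced-like levels differed by no more than counting error in WT (0.09, -0.04 to 0.21) and in KO (0.07, -0.05 to 0.20). Tex15 stood at 834, 1536 and 914 CPM in WT and 790.1, 1379 and 708 CPM in KO, with the highest of the 3 levels in recombination-like cells of both libraries.

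**Figure D1:**
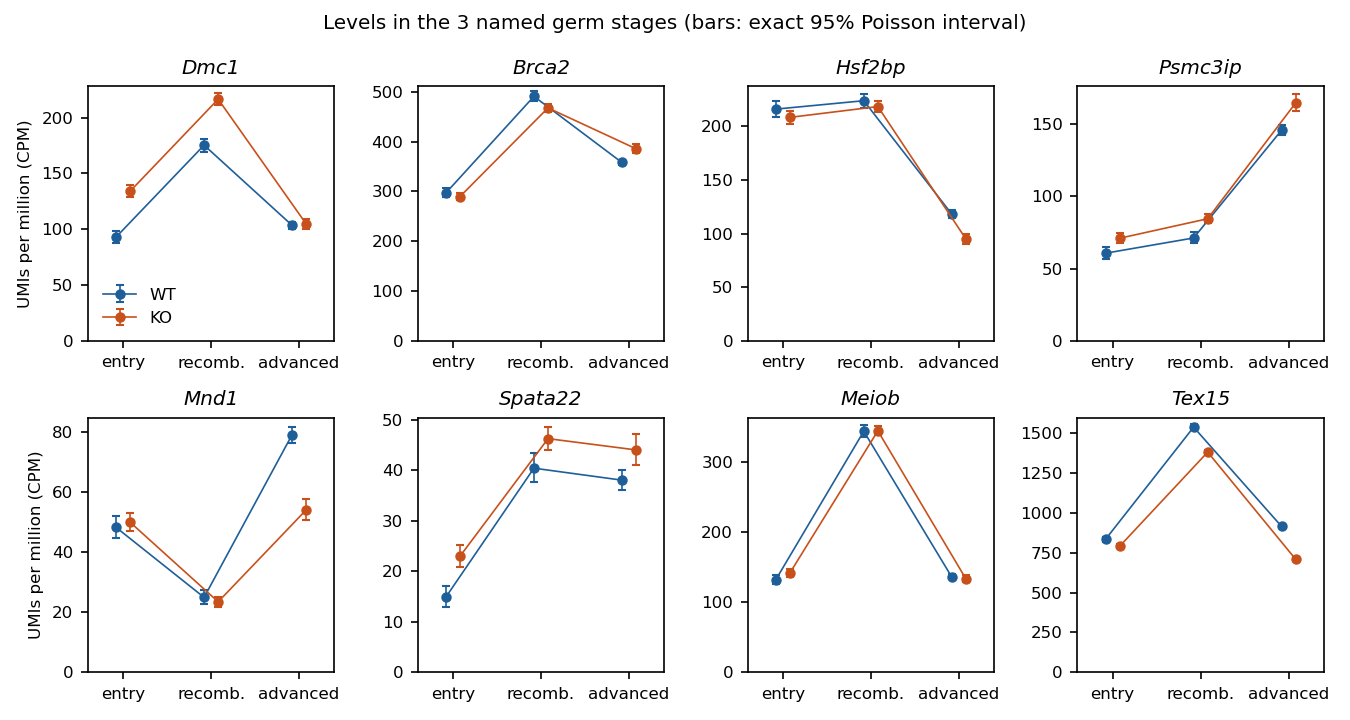
Level of each of the 8 genes (vertical axis, UMIs per 1000000, from 0) in entry-like, recombination-like and advanced-like germ cells (horizontal axis) of the WT and KO library, with bars for the exact 95% Poisson interval, which covers counting error only. Dmc1, Brca2, Meiob and Tex15 peak in the middle stage, Psmc3ip rises to the last stage, and Mnd1 is lowest in the middle stage, at 24.9 CPM in WT.

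By count over the named stages alone, 6 of the 8 genes had their highest WT level in recombination-like cells, against 21.9% of 11526 genes. The same 6 did so in KO, against 20.2%. The exceptions were Psmc3ip and Mnd1, and for Hsf2bp against entry-like cells and Spata22 against advanced-like cells the WT lead was within counting error. At a log2 ratio of at least 0.5, 4 of 8 genes were higher in recombination-like than in advanced-like WT cells, against 16.9% of 11070 genes, and 2 of 8 were lower by as much, against 42.6%. In KO the counts were again 4 and 2, against 17.7% and 40.8% of genes. Of 34 other genes of homologous recombination (BRCA1 and its partners, RPA, the MRN complex, end resection and others), 11 were higher and 6 lower in WT by this limit, and 10 and 6 in KO.

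Other germ-like clusters fell outside the named stages. In a cluster led by Nacad (609 WT and 1091 KO cells), Dmc1 and Meiob were high, at 183 and 318 CPM in WT, the former above the 175 CPM of the recombination-like stage, while Brca2 and Tex15 were at their lowest of the clusters of this resolution, at 214 and 576 CPM. KO cells of this cluster gave 216 and 307 CPM for Dmc1 and Meiob and 246 and 522 CPM for Brca2 and Tex15. In a cluster led by Gm10827 (1732 WT and 1272 KO cells), Brca2 stood at 499 CPM in WT and 603 in KO, the highest Brca2 level of these clusters in each library. Spata22 stood at 47.5 and 51.6 CPM there, above the 40.4 and 46.3 CPM of the recombination-like stage. Dmc1 stood at 178 and 193 CPM there, against 175 and 216 CPM in that stage. The count of highest stages above leaves such clusters out. A cluster led by Plk2 held 389 WT and 1872 KO cells, with Psmc3ip at 156 and 161 CPM. At a finer resolution, a premeiotic-like cluster of 163 WT and 270 KO cells held 80.5 and 91.3 CPM of Dmc1, 44.3 and 49.2 CPM of Psmc3ip and 102 and 93.2 CPM of Meiob.

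A finer view was had by ordering the germ-like cells of each library from premeiotic and entry genes to oocyte genes and dividing the order into 10 bins of equal cell number. The order is a range of marker levels and not time, and the same bin of the 2 libraries need not hold cells of the same state. In WT, Dmc1 rose from 111 CPM in bin 1 to 163 in bin 3 and ended at 108 in bin 10. Meiob peaked in bin 2 at 265 CPM and fell to 149, and Tex15 peaked in bin 2 at 1373 CPM. Hsf2bp declined from 209 CPM in bin 1 to 124 in bin 10, and Psmc3ip rose over the same range from 64.0 to 143 CPM. These opposite slopes were also present in KO, where Hsf2bp went from 210.2 to 120.3 CPM and Psmc3ip from 68.0 to 151 CPM.

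**Figure D2:**
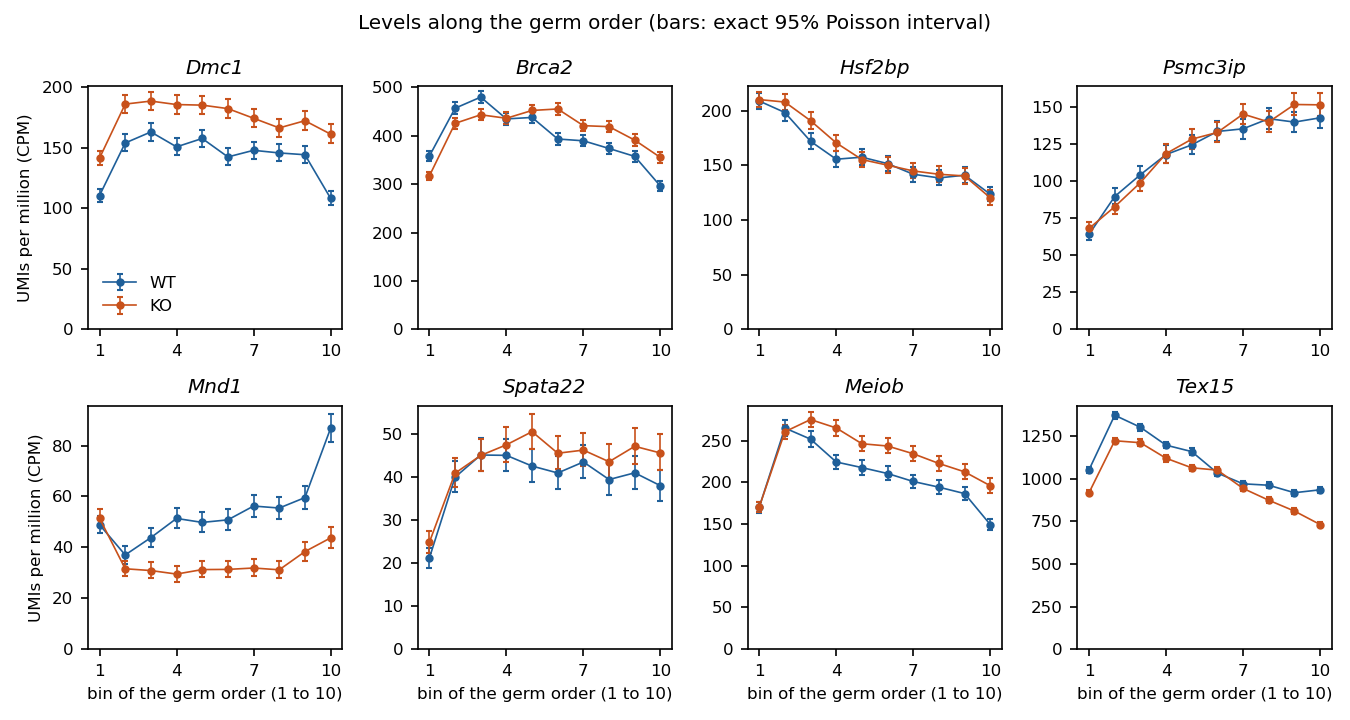
Level of each gene (vertical axis, UMIs per 1000000, from 0) in bins of the germ order (horizontal axis, bin 1 with the most entry-like and bin 10 with the most advanced cells) of WT and KO, with exact 95% Poisson intervals. Hsf2bp falls and Psmc3ip rises along the order in both libraries, and the KO points of Mnd1 lie under those of WT from bin 2 on.

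Over the 20 points of this order (10 bins in each library), the log2 levels of Brca2 and Meiob (Pearson r = 0.92) and of Dmc1 and Meiob (r = 0.86) went together, and those of Hsf2bp and Psmc3ip went apart (r = -0.94). Within each library the first 3 pairs kept their sign, at 0.96, 0.87 and -0.94 over the 10 bins of WT and 0.92, 0.96 and -0.94 over those of KO. Psmc3ip and Mnd1 did not, with r = 0.57 in WT and -0.30 in KO (0.09 pooled, where the lower Mnd1 level of KO also enters). Meiob and Spata22 gave r = 0.50 in WT and 0.66 in KO. The genes most like each member, of 10482 compared, were Smc1b, Ddx24 and Mrpl20 for Dmc1 (r = 0.98 for Smc1b, a cohesin subunit of meiosis). They were Phf8, Fmr1 and Sclt1 for Brca2 (highest r = 0.96), Pspc1, Commd1 and Zmynd11 for Hsf2bp (0.99), and Cdpf1, Lias and Rps20 for Psmc3ip (0.99). For Mnd1 they were Nras, Arl8b and Nop9 (0.96), for Spata22 they were 1700028K03Rik, Spdl1 and 1700007L15Rik (0.97), for Meiob they included Zcwpw1 (0.98) and 2310061I04Rik (0.97), and for Tex15 they were Setd5, Rnf216 and Phf21a (0.96). ZCWPW1 reads the histone marks that PRDM9 writes at break sites. The points of 1 library share its cells, depth and order, so these values describe the 2 libraries only.

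Levels in KO and WT germ-like cells were then compared for each gene. Of the 8 genes, Mnd1 had the largest difference, at 53.7 CPM in WT and 35.5 in KO, 66.1% of the WT level, with a log2 ratio of -0.60 (-0.65 to -0.54). After thinning to 3000 UMIs, 14.7% of WT and 9.89% of KO germ-like cells held a Mnd1 UMI (53.5% and 31.1% without thinning). Of 13797 genes with at least 100 UMIs, 3.38% had a ratio as low as that of Mnd1. Dmc1 was higher in KO, with a log2 ratio of 0.30 (0.27 to 0.32), as were Meiob (0.17, 0.14 to 0.19) and Spata22 (0.13, 0.08 to 0.19). Tex15 was lower (-0.12, -0.13 to -0.11). Hsf2bp (0.05, 0.02 to 0.08) and Brca2 (0.04, 0.03 to 0.06) differed by little, and the interval of Psmc3ip held 0 (0.01, -0.02 to 0.05). The Brca2 ratio took both directions along the germ order, with 3 bins below 0 and 5 above 0 beyond counting error. Its lowest value was -0.18 in bin 1 and its highest 0.26 in bin 10.

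By counting error, 5 of 8 genes were higher in KO, against 20.6% of all genes tested, and 2 were lower, against 36.4%. Intervals narrow as UMIs rise, and the 8 genes had at least 4315 UMIs in each library, so these shares are not matched for level. Among genes of similar UMI count, 97.0% had a lower ratio than Dmc1, 89.1% than Spata22, 83.9% than Meiob and 52.0% than Hsf2bp. The shares were 45.6% for Psmc3ip, 36.6% for Brca2, 8.43% for Tex15 and 0.299% for Mnd1. None of the 8 genes differed by 0.25 or more in the natural log of counts per 10000 plus 1, the size limit of the study, and 0.174% of genes did. At a limit of 0.25 in log2 ratio, Dmc1 was higher (8.62% of genes were) and Mnd1 was lower (19.2% of genes were). The median log2 ratio was 0.05 over the 8 genes and -0.05 over all genes. Of the 34 other recombination genes, 13 were higher, 7 lower and 14 held 0, with a median of 0.01. The largest ratios among them were those of Swi5 (0.31), Rad51ap2 (0.28) and Rad51b (0.23), and the lowest those of Xrcc2 (-0.23), Xrcc3 (-0.19, with an interval that held 0) and Rpa3 (-0.19).

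The lower Mnd1 level of KO was not the same in all germ stages. The log2 ratio was 0.05 (-0.09 to 0.19) in entry-like, -0.09 (-0.25 to 0.08) in recombination-like and -0.55 (-0.65 to -0.44) in advanced-like cells. It was -0.94 (-1.13 to -0.74) in the cluster led by Plk2 and -0.35 (-0.50 to -0.20) in that led by Gm10827. Along the order, WT went from 48.9 CPM in bin 1 to 37.0 in bin 2 and 86.8 in bin 10, and KO from 51.4 to 31.6 and 43.7. KO was below WT beyond counting error in 9 of 10 bins, from bin 2 to bin 10, where the log2 ratio was -0.99. Sohlh1, an oocyte transcription factor that is 1 of the genes that set the order, stood at 116 CPM in bin 10 of WT and 19.4 in bin 10 of KO, so the last bins of the 2 libraries also differed in oocyte genes. Its part in the Mnd1 difference was not tested.

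Dmc1 was higher in KO in each of the 10 bins, by log2 ratios of 0.19 to 0.58, the largest in bin 10 (108 CPM in WT and 161 in KO). The named stages instead put the largest difference at entry. By stage the ratio was 0.53 (0.43 to 0.63) in entry-like, 0.30 (0.25 to 0.36) in recombination-like and 0.02 (-0.06 to 0.10) in advanced-like cells. Among the named stages Spata22 differed most at entry as well (0.62, 0.38 to 0.87). By bins its largest log2 ratio was 0.26, in bin 10 (38.0 CPM in WT and 45.6 in KO). Psmc3ip, level over all germ-like cells, was higher in KO in each named stage (0.23, 0.25 and 0.18, each interval above 0), and the stages took different shares of germ-like cells in the 2 libraries (advanced-like cells were 33.0% in WT and 21.1% in KO). Along the order Psmc3ip was higher in KO in 6 bins and lower in 4, by log2 ratios of -0.12 to 0.12, with 2 intervals above 0. Hsf2bp was lower in KO advanced-like cells (-0.31, -0.39 to -0.23), but in no bin of the order beyond counting error (lowest log2 ratio -0.04, with 2 intervals above 0). Tex15 was lower in all 3 stages, most in advanced-like cells (-0.37, -0.40 to -0.34), and in 9 bins beyond counting error. The Meiob ratio was 0.10 (0.01 to 0.19) in entry-like cells. Its intervals held 0 in recombination-like (0.00, -0.04 to 0.05) and advanced-like cells (-0.03, -0.10 to 0.04). By bins, Meiob was higher in KO in 9, with 8 intervals above 0.

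**Figure D3:**
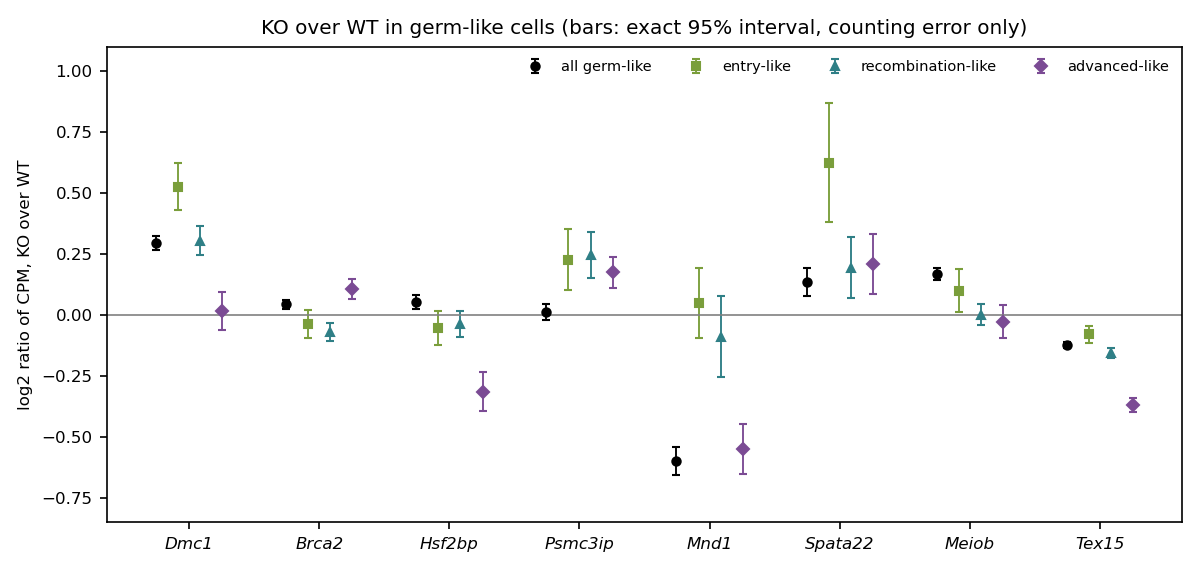
Log2 ratio of KO over WT levels (vertical axis) of the 8 genes (horizontal axis) in all germ-like cells and in the 3 named stages, with bars for the exact 95% interval of counting error. Mnd1 lies near 0 in entry-like and recombination-like cells and at -0.55 in advanced-like cells, and Dmc1 goes from 0.53 in entry-like to 0.02 in advanced-like cells.

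Somatic-like cells were examined to see which of these meiotic genes were read outside the germline. Over all somatic-like cells, Dmc1, Hsf2bp, Spata22, Meiob and Tex15 stood at 10.3% to 13.1% of their germ-like level in WT, within or below the range of the germ markers. Brca2 (14.9%, 14.2% to 15.6%), Psmc3ip (32.9%, 31.0% to 34.9%) and Mnd1 (37.9%, 34.9% to 41.2%) had intervals that lay above the highest germ marker (14.0%). The same 3 of 8 genes did so in KO, where Dmc1 (20.04%, 19.1% to 21.03%) and Meiob (19.5%, 18.7% to 20.4%) had intervals that held the highest marker (19.2%). By the same rule, 91.7% of 12427 genes in WT and 92.6% in KO lay above the markers, as most genes were read in germ and somatic cells alike.

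Low-germ cells were chosen by their few UMIs of these same germ markers, so the markers are low there by construction, and a gene above them need not be one that the somatic cells transcribe. Mnd1 stood at 16.1 CPM in WT and 15.8 in KO, 29.95% (26.95% to 33.2%) and 44.6% (40.6% to 48.9%) of the germ-like level. Psmc3ip stood at 30.1 and 24.96 CPM, 25.7% (23.8% to 27.7%) and 21.1% (19.6% to 22.65%). Brca2 stood at 23.9 and 27.8 CPM, 6.003% (5.52% to 6.52%) and 6.78% (6.34% to 7.24%). The highest germ marker was at 2.48% in WT and 2.65% in KO. The interval of Tex15 also lay above it, at 3.54% (3.31% to 3.78%) in WT and 4.09% (3.87% to 4.32%) in KO, and that of Dmc1 lay above it in KO only (2.69%, 2.16% to 3.31%, in WT and 3.67%, 3.18% to 4.21%, in KO), a difference between libraries that was not tested. Thus 4 of 8 genes in WT and 5 of 8 in KO lay above the markers, against 94.5% and 95% of genes. The intervals of Hsf2bp (2.71% in both), Meiob (2.35% and 2.75%) and Spata22 (1.28% and 1.73%) did not lie above the highest marker.

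**Figure D4:**
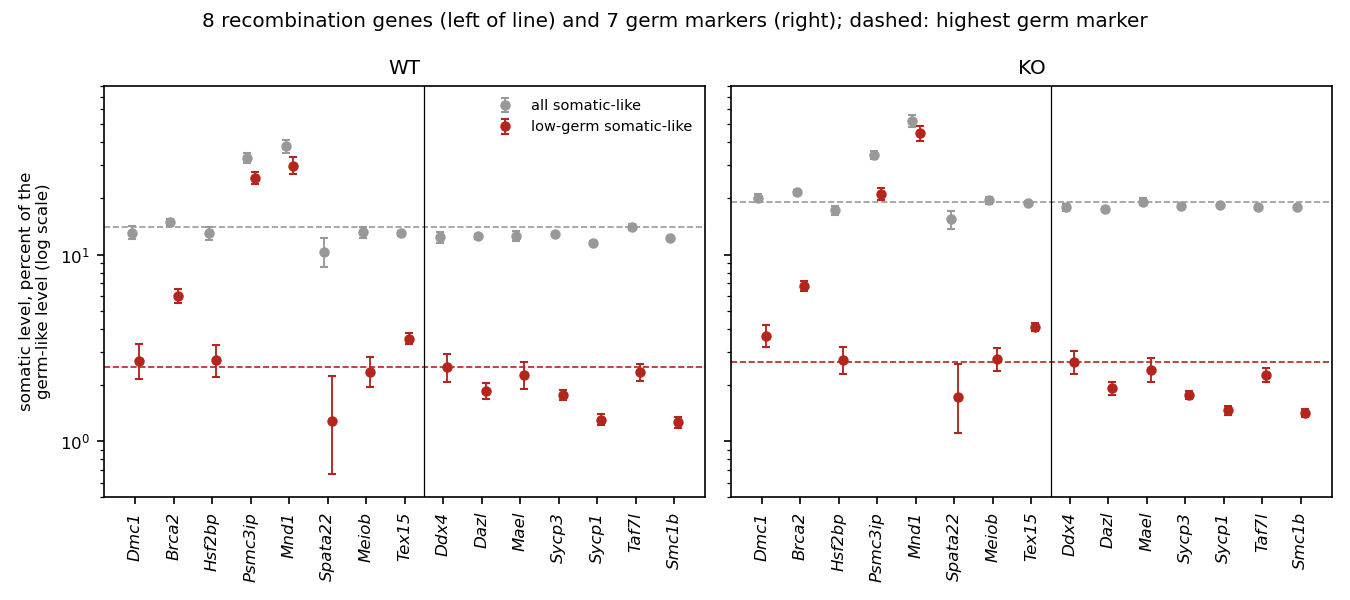
Somatic level as a percentage of the germ-like level (vertical axis, log scale) of the 8 genes and of the 7 germ markers (horizontal axis) in WT and KO, for all somatic-like cells and for low-germ cells, with exact 95% intervals and dashed lines at the highest germ marker. Psmc3ip and Mnd1 stay high in low-germ cells, at 25.7% and 29.95% in WT, whereas the germ markers drop to 2.48% or less.

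The 3 larger somatic classes, granulosa-like (supporting cells of the follicle), epithelia-like (ovarian surface) and theca-like (stroma), did not hold these transcripts equally. In low-germ WT cells, Mnd1 stood at 23.2 CPM (19.8 to 27.0) in theca-like, 21.9 (18.4 to 26.0) in epithelia-like and 8.05 (6.37 to 10.1) in granulosa-like cells, so the first 2 classes did not differ beyond counting error and granulosa-like cells were lower. KO gave 25.3, 18.6 and 7.38 CPM. Psmc3ip stood at 39.1 CPM (34.3 to 44.4) in epithelia-like, 32.8 (28.7 to 37.3) in theca-like and 23.2 (20.3 to 26.5) in granulosa-like WT cells, and at 35.1, 26.9 and 16.4 CPM in KO. Brca2 stood at 35.2 CPM (31.0 to 39.9) in theca-like, 23.2 (19.6 to 27.4) in epithelia-like and 16.6 (14.2 to 19.4) in granulosa-like WT cells, and at 37.7, 31.5 and 18.5 CPM in KO.

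Tex15 was instead highest in granulosa-like cells, with 49.97 CPM (45.6 to 54.6) there, 36.5 (32.2 to 41.2) in theca-like and 27.7 (23.7 to 32.2) in epithelia-like WT cells, and 56.9, 35.1 and 28.7 CPM in KO. Dmc1 had 26, 25 and 39 UMIs in the granulosa-like, epithelia-like and theca-like low-germ cells of WT. The other 4 classes (erythroid-like, immune-like, endothelia-like and perivascular-like) had 5 to 30 low-germ cells each in WT, too few to compare. In the 28 endothelia-like cells of WT, for instance, Dmc1 had 0 UMIs, which allows up to 8.44 CPM.

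Somatic-like cells were next split into cycling and resting cells by genes of S phase and of G2 and mitosis, since BRCA2 also serves DNA replication in dividing cells. Over all somatic-like cells every one of the 8 genes was higher in cycling cells (8 of 8 in each library, against 31.7% of 11397 genes in WT and 35.3% in KO), with a Brca2 log2 ratio of 2.24 (2.05 to 2.43) in WT. All 8 reached a log2 ratio of 1 in both libraries, as did 6.83% of genes in WT and 9.7% in KO. The germ markers were higher in cycling cells too, with log2 ratios of 2.29 to 3.21 in WT and 2.69 to 3.60 in KO, and 24.3% of cycling against 9.61% of resting WT cells were over the limit on germ marker UMIs (38.9% and 18.4% in KO). In low-germ cells the median of the germ markers was -0.13 in WT and -0.08 in KO, which the limit on these same markers largely sets, and whether other germ transcripts were balanced was not tested. The split was checked there with Mki67 (4.83 and 4.52) and Pcna (1.67 and 1.45), which were not used to make it.

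In low-germ cells with all classes pooled, Brca2, Psmc3ip and Mnd1 were higher in cycling cells of both libraries. Granulosa-like cells, which held the lowest levels of these 3 genes among the larger classes, were 185 of 809 cycling and 592 of 1072 resting WT cells. In KO they were 388 of 1713 and 1086 of 2038. The class mix thus enters the pooled ratios, its part was not tested, and ratios within classes are given below. Brca2 stood at 31.1 CPM in cycling and 17.5 in resting WT cells and at 34.4 and 21.2 in KO, log2 ratios of 0.83 (0.58 to 1.08) and 0.70 (0.50 to 0.90). Psmc3ip stood at 38.4 and 22.9 CPM in WT and 33.6 and 16.3 in KO, log2 ratios of 0.75 (0.53 to 0.97) and 1.04 (0.83 to 1.26). Mnd1 stood at 22.6 and 10.3 CPM in WT and 21.6 and 10.0 in KO, log2 ratios of 1.13 (0.82 to 1.44) and 1.104 (0.83 to 1.38). These 3 genes are the same 3 that lay above every germ marker in all somatic-like cells.

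The other 5 genes gave no such pair of ratios. Dmc1 was higher in cycling cells of WT (0.79, 0.16 to 1.44, from 55 and 36 UMIs) but not of KO (-0.07, -0.48 to 0.33), and Hsf2bp of KO (0.53, 0.04 to 1.03) but not of WT (0.01, -0.57 to 0.59), and the difference between libraries was not tested for either. The intervals of Meiob and Spata22 held 0 in both libraries. Tex15 was lower in cycling cells (-0.19, -0.38 to -0.00 in WT, and -0.31, -0.47 to -0.15 in KO), but within granulosa-like, epithelia-like and theca-like cells its intervals held 0 in both libraries. In all, 4 of 8 genes were higher in each library, against 22.4% of genes in WT and 23.3% in KO. Of the 34 other recombination genes, 23 were higher in WT and 28 in KO, and 1 was lower in each.

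Within classes, the intervals of Brca2, Psmc3ip and Mnd1 lay above 0 in epithelia-like and theca-like cells and held 0 in granulosa-like cells. The difference between classes was not tested, and in WT the intervals of the classes overlapped. The Mnd1 log2 ratio in low-germ cells was 1.07 (0.54 to 1.62) in theca-like, 0.70 (0.11 to 1.32) in epithelia-like and 0.28 (-0.50 to 1.02) in granulosa-like WT cells. For Psmc3ip the WT ratios were 0.84 (0.41 to 1.29), 0.77 (0.32 to 1.23) and 0.21 (-0.24 to 0.64), and for Brca2 they were 0.52 (0.12 to 0.92), 1.25 (0.62 to 1.94) and 0.35 (-0.17 to 0.86). In KO the theca-like and epithelia-like ratios of Brca2, Psmc3ip and Mnd1 lay between 0.62 and 1.52, each interval above 0, and those of granulosa-like cells between -0.22 and 0.06. Mki67 had 1 UMI in the 185 low-germ granulosa-like WT cells classed as cycling and 29 in the 592 classed as resting. In KO, Mki67 was at 5.82 and 3.33 CPM there. The held-out genes thus did not bear out the label of cycling in granulosa-like cells, and nothing is read from the ratios there. Mlx, which overlaps Psmc3ip, was not higher in cycling low-germ cells (-0.36 in WT and -0.00 in KO). In WT it stood at 22.8 CPM in cycling and 29.3 in resting low-germ cells, against 3.88 CPM in germ-like cells. In KO it stood at 24.2 CPM in cycling and resting cells alike and at 3.59 CPM in germ-like cells. The part of Mlx in the somatic level of Psmc3ip was not tested.

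**Figure D5:**
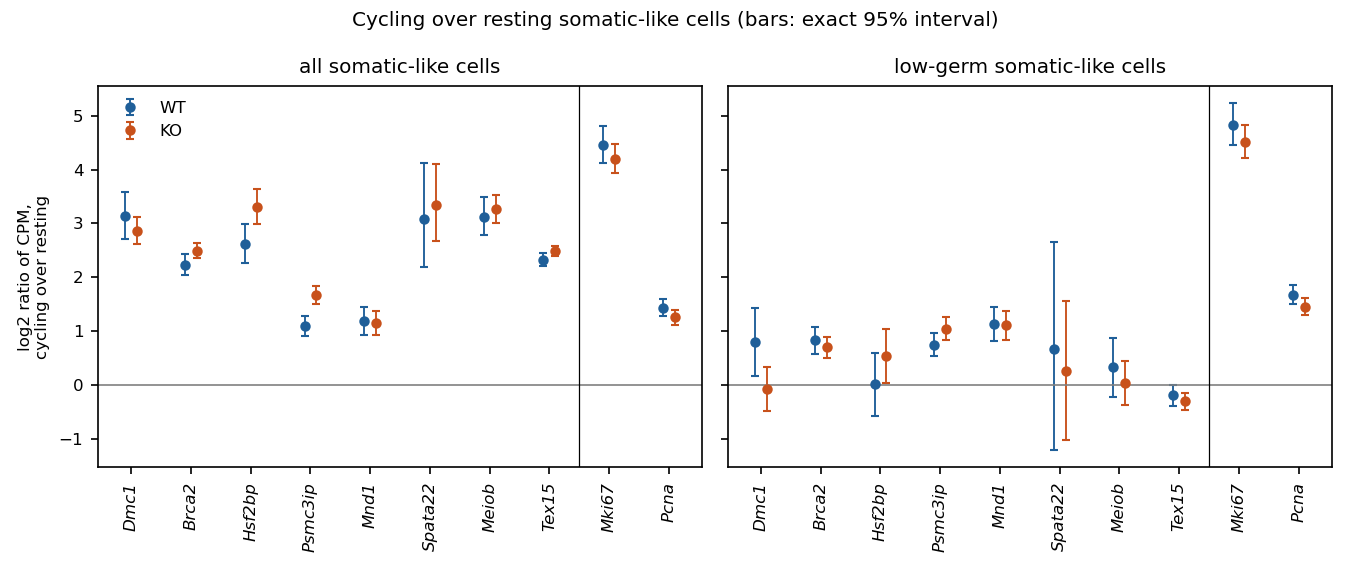
Log2 ratio of cycling over resting levels (vertical axis) of the 8 genes and of Mki67 and Pcna (horizontal axis) in all somatic-like cells and in low-germ somatic-like cells of WT and KO, with exact 95% intervals. Without the cells rich in germ RNA, Brca2, Psmc3ip and Mnd1 remain above 0 in both libraries, at 0.83, 0.75 and 1.13 in WT. The somatic classes are pooled, and their shares differ between cycling and resting cells.

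The somatic levels of KO and WT were also set side by side in low-germ cells. The log2 ratio of KO over WT of Mnd1 was -0.02 (-0.22 to 0.17), whereas it was -0.60 in germ-like cells, and the difference between the 2 ratios was not tested. Psmc3ip was lower in KO (-0.27, -0.42 to -0.13), with 16.3 against 22.9 CPM in resting and 33.6 against 38.4 in cycling cells. Brca2 was higher (0.22, 0.07 to 0.37), as were Dmc1 (0.74, 0.38 to 1.11) and Meiob (0.39, 0.06 to 0.73), the latter 2 at levels under 7.0 CPM in each library. The germ marker range in these cells was also a little higher in KO than in WT, and its part in the ratios of Dmc1 and Meiob was not tested.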

How the data were processed

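Single-cell transcripts of 1 WT and 1 KO library were analysed. The deposited files hold UMI counts, which the authors made per gene and barcode with Cell Ranger (3.0.2 per the file headers) from 10x 3-prime v3 libraries. The submitters' processing notes name the build mm10 and Seurat 3.2.3, and the gene annotation of the counts is not given in the sources used here. Following the study's own limits, cells were kept with over 1500 and under 6500 genes, over 5500 and under 40000 UMIs in WT, over 1200 and under 5500 genes, over 3000 and under 30000 UMIs in KO, and under 10% mitochondrial UMIs in both. The 2 libraries held 168483330 (WT) and 186117981 (KO) UMIs before these limits. Counts were scaled to 10000 per cell and clustered with Scanpy 1.11.5 (2000 variable genes without the 8 genes, 30 components, 20 neighbours, leidenalg 0.10.2 at resolution 0.5, seed 1). Clusters were named with the suffix -like by a mean marker z of at least 0.4 (germ stages 0.8) with at least 3 markers found in 10% of cells, limits set after the clusters had been seen. These names are rebuilt, so they can differ from those of the study. Doublets were kept in the main values, and their removal (Scrublet, expected rate 8%) was an alternative.

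UMIs were summed per class and library and given as CPM with exact Poisson intervals, and ratios carry exact Clopper-Pearson intervals. The likeness of genes used log2(CPM + 5) for genes with at least 500 UMIs. A gene entered a comparison if its 2 sides summed to 100 UMIs or more. Cycling cells held at least 2 UMIs of either cycle list after thinning to 3000 UMIs. Dnd1 was dropped from the germ markers after it was seen to be higher in somatic-like cells, but its UMIs still counted toward the low-germ limit. The use of low-germ cells in the cycling comparison was added after the data were seen. In a simulated comparison of the germ-like cells with 200 changed genes, 95.7% of 13797 intervals held the true ratio. The summed counts were drawn from the Poisson model that the intervals assume, so this checks the computation only. Variation between cells, embryos, sorts or captures was not simulated. Near-identical transcripts (at least 95% over 200 bases) were found with BLAST+ 2.17.0. The genes and lists were chosen with earlier results of these data known. The named genes are the 8, the 3 most alike to each, and the 3 highest and 3 lowest of the recombination list, with some items not reported here. Alternatives in cell limits, doublets, scaling, depth, clustering and cycling limits are given in the closing section.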

Additional observations from a re-analysis of the deposited data

Results flagged for a closer look

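Among the germ-like clusters, 2 of the 8 genes had KO over WT ratios beyond counting error in opposite directions. The log2 ratio of Brca2 was 0.27 in the cluster led by Gm10827 and -0.07 in recombination-like cells. That of Tex15 was 0.05 in the cluster led by Plk2 and -0.37 in advanced-like cells. The difference between clusters was not tested, since each genotype is 1 library, and median depth in advanced-like cells was 17214 UMIs in WT and 7241 in KO.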

How the results depend on the processing

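No paired analysis was possible because each genotype has 1 library, and for the same reason no replicate could be left out. The cycling comparison within low-germ cells, its own alternatives and the removal of 1 germ cluster were chosen after seeing the data. The WT Brca2 log2 ratio of cycling over resting somatic-like cells, 2.24, was 2.02 with at least 4 UMIs of either list, 2.60 in granulosa-like cells alone and 1.55 without Scrublet doublets. In low-germ cells it was 0.83, also without Scrublet doublets, and 1.19 with at least 4 UMIs, so its size depends on how cells with germ RNA are treated. The alternatives that keep such cells cannot decide its direction, since the germ markers were higher in cycling cells too (2.29 to 3.21). The direction of the Brca2 ratio held in the low-germ alternatives, with classes pooled. In low-germ granulosa-like WT cells, where the label of cycling was not borne out, the ratio was 0.35 (-0.17 to 0.86). The median KO over WT ratio of the 8 genes in germ-like cells, 0.048, moved to 0.021 when mitochondrial, ribosomal protein and haemoglobin genes were left out of the totals. It lay between 0.021 and 0.069 over all its alternatives. The KO over WT ratio of Mnd1 lay between -0.63 and -0.59 and that of Dmc1 between 0.27 and 0.30 over theirs. The count of genes above the germ markers in WT somatic-like cells (3) was 3 or 4 under its alternatives. In KO it was 3 in all somatic-like cells and 5 in low-germ cells, and the other alternatives were not run there. The count of genes with their highest WT stage in recombination-like cells (6) was 5 at germ clustering resolution 1.0 and by bins of the germ order, where Hsf2bp left. At resolution 0.3 it was 7, with Psmc3ip, but only premeiotic-like and recombination-like clusters were named there. Without an advanced-like stage, in which Psmc3ip was highest, that count cannot check the 6. Levels under 7 CPM rest on few UMIs, and depth differs between the libraries.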
